A study of Mus musculus with 8 samples.

Results

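The genes described here encode the receptors for interleukin-33, interleukin-1 and interleukin-18, their shared partner chains, decoys and inhibitors, and the first steps of their signalling. They were chosen by symbol, as the 10 rows Il1rl1, Il1r1, Il18r1, Il1rap, Il18rap, Il1r2, Sigirr, Il1rn, Irak2 and Myd88 of the 38406 gene symbols in the deposited count table. The RNA came from regulatory T cells (Tregs, CD4 T cells that express Foxp3 and restrain immune responses) of male C57BL/6 mice, sorted from spleen or from muscle 4 days after that muscle was injured with 0.9 µg of cardiotoxin, a venom protein that kills muscle fibres. The 4 groups were spleen of mice aged 2 months (young spleen), spleen of mice older than 6 months (aged spleen), and injured muscle at the same ages (young muscle and aged muscle), with 2 libraries each from 1500 sorted cells. The spleens came from injured mice too, and uninjured mice were not analysed here. The labels give neither the markers of the sort nor whether a library pooled several mice.

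The family works through paired chains. A ligand-binding chain, such as ST2 for IL-33 (Il1rl1), IL-1R1 for IL-1 (Il1r1) or IL-18Rα for IL-18 (Il18r1), binds its cytokine and then recruits a second chain, which is Il1rap for IL-33 and IL-1 and Il18rap for IL-18. The intracellular TIR domains of the pair recruit the adaptor Myd88 and the IRAK kinases, which activate NF-kB and MAP kinases. IL-33 is known to expand ST2-bearing Tregs in injured muscle, and the decoy receptor Il1r2 binds IL-1 without signalling because it lacks a TIR domain.

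Libraries held 1969982 to 4008622 counts. Levels are given as CPM, the count scaled to library size by TMM, and a group value is the mean ± SD of 2 libraries. Fold changes are on the log2 scale with their standard error (SE), and an adjusted p is from edgeR's quasi-likelihood test over 14772 genes. Foxp3 had 33 to 108 counts in each library, and 0 of 10 Treg and CD4 T cell markers were at 0 in any of them. Foxp3 passed no test at an adjusted p under 0.05, but the 10 were not even across groups. In muscle against spleen, 1 was higher and 3 lower in young mice (all genes 11.4% and 10.9%), and 3 and 4 in aged mice (9.57% and 9.27%). With age, 1 was higher and 2 lower in spleen (2.08% and 2.17%), and 1 and 1 in muscle (1.14% and 0.88%). Young muscle replicate 1 stood apart in markers of other cells. Its macrophage and monocyte markers summed to 601 CPM against 34.9 to 75.4 CPM in the other 7 libraries, and its fibroblast markers to 393 CPM against 5.21 to 89.6 CPM. In these bulk libraries, more receptor-bearing cells and more RNA per cell cannot be told apart.

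**Figure D1:**
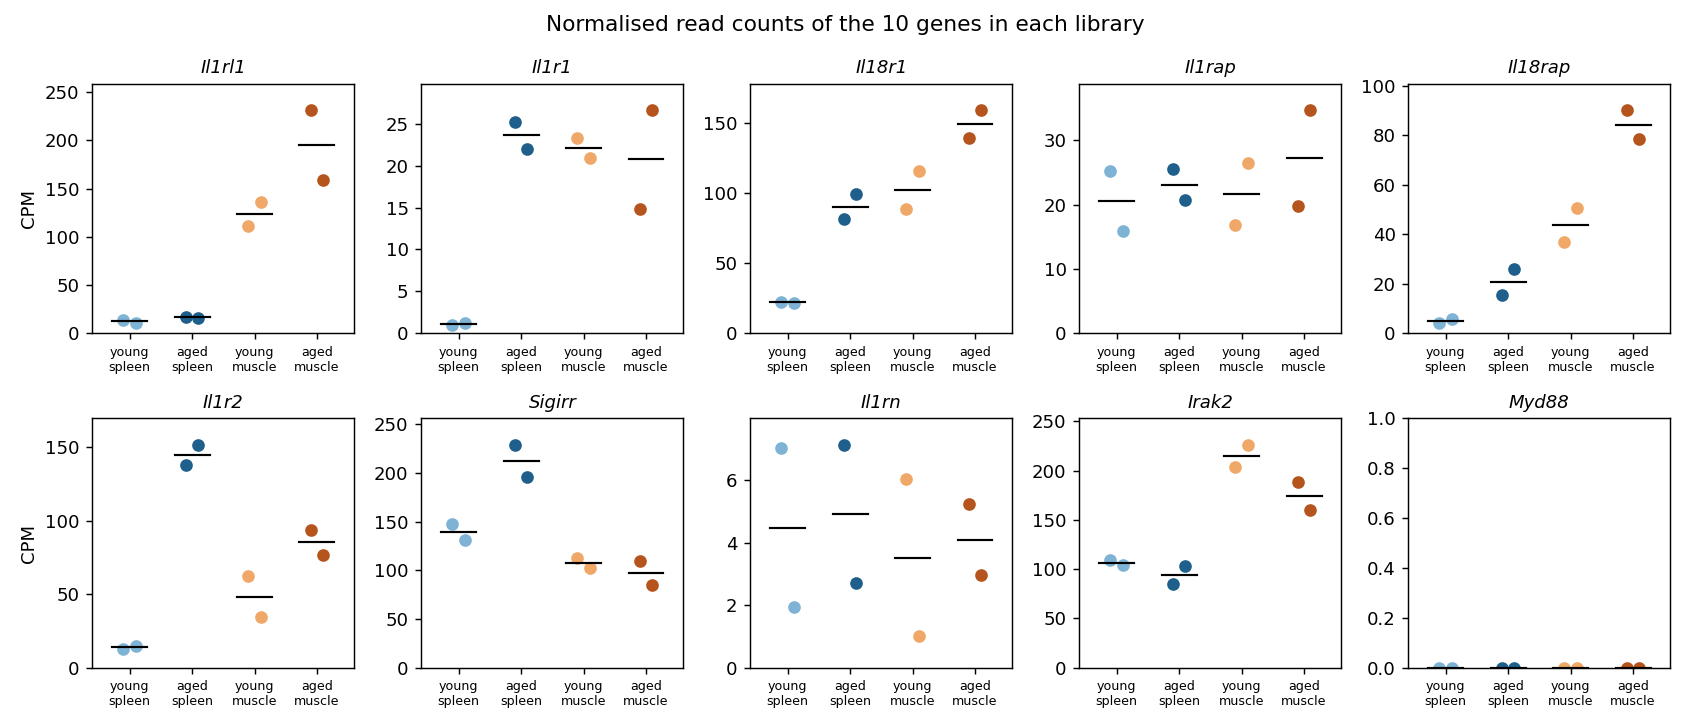
Normalised read counts (CPM, linear axis from 0, a separate scale for each gene) of the 10 genes in the 8 libraries; points are libraries and the line is the mean of 2. Il1rl1 is high in both muscle groups, Il1r1 is near 0 in young spleen alone, and Il1r2 is highest in aged spleen, at 138 and 151 CPM.

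The IL-33 receptor gene Il1rl1 (chromosome 1, 40429570 to 40465415, plus strand, GRCm38) was a muscle gene at both ages. It was read at 13.6 and 10.8 CPM in young spleen and at 17.2 and 15.9 CPM in aged spleen. In young muscle it reached 111 and 136 CPM, and in aged muscle 231 and 159 CPM. Every muscle library lay above every spleen library, and the 2 aged muscle libraries lay above both young ones. Muscle exceeded spleen by 3.35 ± 0.27 in young mice (10.2-fold; adjusted p = 4.7e-07) and by 3.55 ± 0.25 in aged mice (11.7-fold; adjusted p = 3.14e-07). The age difference was 0.66 ± 0.22 in muscle (adjusted p = 0.148) and 0.45 ± 0.29 in spleen (adjusted p = 0.471), neither past the threshold of 0.05. The 95% interval in spleen, -0.16 to 1.06, does not exclude a rise of that upper size.

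Il1rl1 has 2 annotated start sites, and the table does not separate their transcripts. The windows of 250 bases before to 50 after each start (RefSeq, GRCm38.p6) are shown because Il1rl1 is the IL-33 receptor gene. Il1rl1 also had the largest fitted tissue difference of the 9 tested genes in aged mice. The window of Il1r2 is shown because this gene rose with age in spleen to the highest of its 4 group levels. Capitals mark matches, on either strand, to AGATAA (the GATA motif) in the Il1rl1 windows and to TTCNNNGAA (a STAT motif) in the Il1r2 window.
Il1rl1 upstream start (chr1:40429320-40429619, plus strand): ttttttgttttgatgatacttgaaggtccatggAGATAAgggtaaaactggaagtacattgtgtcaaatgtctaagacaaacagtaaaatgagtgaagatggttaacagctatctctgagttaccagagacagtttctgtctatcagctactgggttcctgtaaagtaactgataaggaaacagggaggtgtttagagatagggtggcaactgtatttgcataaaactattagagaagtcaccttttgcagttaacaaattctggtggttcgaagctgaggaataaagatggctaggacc
Il1rl1 downstream start (chr1:40439379-40439678, plus strand): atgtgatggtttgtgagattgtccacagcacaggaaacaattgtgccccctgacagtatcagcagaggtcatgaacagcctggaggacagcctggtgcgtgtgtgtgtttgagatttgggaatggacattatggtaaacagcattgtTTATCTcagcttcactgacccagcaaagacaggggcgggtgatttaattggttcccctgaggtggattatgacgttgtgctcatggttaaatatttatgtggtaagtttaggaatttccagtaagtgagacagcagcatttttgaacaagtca
Il1r2 start (chr1:40085843-40086142, plus strand): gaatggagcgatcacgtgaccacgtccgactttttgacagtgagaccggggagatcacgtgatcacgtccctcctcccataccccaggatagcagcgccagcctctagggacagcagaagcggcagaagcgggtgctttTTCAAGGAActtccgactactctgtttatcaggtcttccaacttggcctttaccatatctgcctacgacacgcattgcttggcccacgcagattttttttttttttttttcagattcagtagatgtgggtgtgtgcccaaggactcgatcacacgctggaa
Each Il1rl1 window held 1 GATA match, at -217 and at -103 from its start, and 11.2% of 32851 mouse promoter windows hold this motif at least once. The Il1r2 window held a STAT match at -111, which 8.3% of windows have. AP-1 (TGANTCA, in 7.81% of windows) and NF-kB (GGGA and TTCC with any 2 bases between them, in 1.47%) had no match in these 3 windows. The table had windows for 9 of the 10 genes, 15 in all. Outside the 3 shown, STAT matches lay in 1 Il18r1 window (-219 and -152) and in the Myd88 window (-46). An AP-1 match lay in 1 Il1rn window (-141). The windows of Il1r1, Il18rap, Irak2 and Il1rap had no match to any of these motifs. These are letter matches only, and no binding was measured here.

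Among 7773 genes whose log2 CPM averaged 4 or more, those most like Il1rl1 over the 8 libraries were Phlpp1, Hopx, Spty2d1, Cx3cr1 and Odc1, with Pearson's r of 0.996, 0.992, 0.992, 0.991 and 0.991 on log2 CPM. Their Spearman values were 0.976, 0.905, 0.952, 0.976 and 0.952, and for each of them 23 to 163 genes had a Spearman value at least as high. Cx3cr1, the fractalkine receptor gene, was read at 68.2 to 117 CPM in the 4 spleen libraries and 422 to 534 CPM in the 4 muscle libraries. Odc1, which encodes the first enzyme of polyamine synthesis, was read at 143 to 226 CPM in spleen and 671 to 1073 CPM in muscle. These correlations describe points that share tissue, and muscle and spleen do not overlap for either gene.

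The signalling IL-1 receptor gene Il1r1 (chromosome 1, 40225080 to 40317257) was nearly absent from young spleen and at similar levels in the other 3 groups. Young spleen held 2 and 3 counts, or 0.935 and 1.16 CPM. Aged spleen was at 25.3 and 22.1 CPM, young muscle at 23.3 and 21.0 CPM and aged muscle at 14.9 and 26.6 CPM. The last 3 groups overlapped, and young spleen lay below all of them. Il1r1 rose with age in spleen by 4.43 ± 0.58 (adjusted p = 0.000325), and was higher in muscle than spleen of young mice by 4.33 ± 0.58 (adjusted p = 8.86e-05). From the summed counts, 168 against 5, the age ratio in spleen was 22.6 (95% counting interval 9.48 to 70.4). In aged mice the tissues differed by -0.19 ± 0.41 (adjusted p = 0.767) and in muscle the ages by -0.10 ± 0.42 (adjusted p = 0.936).

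The decoy receptor gene Il1r2 (chromosome 1, 40074079 to 40125231) rose with age in spleen to the highest level of the 4 groups. It was at 13.1 and 14.7 CPM in young spleen and at 138 and 151 CPM in aged spleen, a rise of 3.37 ± 0.29 (10.3-fold; adjusted p = 9.21e-06). Young muscle was at 62.4 and 34.5 CPM, above young spleen by 1.80 ± 0.29 (adjusted p = 0.000508). Aged muscle was at 93.9 and 77.0 CPM, so that in aged mice the order of the tissues was turned: muscle was below spleen by a log2 fold change of -0.76 ± 0.24 (adjusted p = 0.0421). That last call was narrow, since it ended with relative log expression scaling (-0.71, adjusted p = 0.0533), with DESeq2 (-0.71, adjusted p = 0.0831) and without any 1 of 6 libraries, namely either young spleen (-0.76 each), either aged spleen (-0.82 and -0.69) or either aged muscle library (-0.88 and -0.62). In muscle the age difference of 0.81 ± 0.26 did not pass (adjusted p = 0.133), though it did without young muscle replicate 1 (1.31, adjusted p = 0.025), the library of the 2 with the higher Il1r2 value and with the raised macrophage and fibroblast markers. Whether those markers bear on the Il1r2 value was not tested.

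Both IL-18 receptor genes rose with age in spleen and were higher in muscle at both ages. Il18r1, the ligand-binding chain (chromosome 1, 40465552 to 40500854), was at 22.0 and 21.7 CPM in young spleen and rose to 81.2 and 99.4 CPM in aged spleen. Young muscle libraries read 88.9 and 115 CPM, and aged muscle libraries 139 and 159 CPM. Only aged spleen and young muscle overlapped. The rise with age in spleen was 2.04 ± 0.23 (adjusted p = 9.76e-05), and muscle exceeded spleen by 2.22 ± 0.23 in young mice (adjusted p = 7.17e-06) and by 0.72 ± 0.20 in aged mice (adjusted p = 0.0213). The call in aged mice was lost when either aged spleen library (0.58 without replicate 1, 0.88 without replicate 2) or the second aged muscle library (0.62) was left out.

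Il18rap, the partner chain (chromosome 1, 40515362 to 40551705), was ordered the same way, and no groups overlapped. Young spleen libraries read 4.21 and 5.81 CPM, and aged spleen libraries 15.4 and 25.8 CPM. Young muscle was at 37.0 and 50.5 CPM, and aged muscle at 90.1 and 78.7 CPM. The rise with age in spleen was 2.00 ± 0.38 (adjusted p = 0.00699), and muscle exceeded spleen by 3.10 ± 0.38 in young mice (adjusted p = 3.46e-05) and by 2.04 ± 0.31 in aged mice (adjusted p = 0.000405). The age call in spleen ended without young spleen replicate 1 (1.81), young spleen replicate 2 (2.27) or aged spleen replicate 2 (1.60). In muscle the age differences were 0.55 ± 0.20 for Il18r1 (adjusted p = 0.201) and 0.95 ± 0.30 for Il18rap (adjusted p = 0.132), with the aged libraries above the young ones in both genes. The annotated end of Il1rl1 and start of Il18r1 are 136 bases apart on the same strand, so reads near that border could belong to either gene.

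Il1rap, the partner chain shared by the IL-33 and IL-1 receptors (chromosome 16, 26581704 to 26730117), passed no test. Its libraries read 25.2 and 15.9 CPM for young spleen and 25.5 and 20.7 CPM for aged spleen. Muscle libraries read 16.9 and 26.5 CPM (young) and 19.7 and 34.7 CPM (aged), and all 4 groups overlapped. Its tissue difference in aged mice was 0.23 ± 0.39 with a 95% interval of -0.61 to 1.07. In counts, Il1rl1 was 0.537 to 0.771 times Il1rap in the 4 spleen libraries and 4.57 to 11.7 times in the 4 muscle libraries.

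Sigirr, a family member that dampens IL-1 and IL-33 signalling (chromosome 7, 141091175 to 141100572, minus strand), was lower in muscle than spleen of aged mice. Spleen libraries read 147 and 131 CPM (young) and 229 and 196 CPM (aged). Muscle libraries read 113 and 102 CPM (young) and 109 and 85.4 CPM (aged), all below the spleen libraries. Muscle was below spleen in aged mice by a log2 fold change of -1.12 ± 0.18 (adjusted p = 0.000735), while the difference in young mice was -0.37 ± 0.19 (adjusted p = 0.163). The age difference in spleen, 0.61 ± 0.18, just missed the threshold (adjusted p = 0.0739). It passed with library-size scaling (0.78), with only the spleen groups fitted (0.60) and without any 1 muscle library (0.60 to 0.61). Il1rn, the secreted IL-1 receptor antagonist (chromosome 2, 24336853 to 24351494), stayed low at 0.999 to 7.11 CPM, from 2 to 29 counts a library, and passed no test.

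Downstream of the receptors, the kinase gene Irak2 (chromosome 6, 113638467 to 113695026) was higher in muscle. Spleen libraries were at 109 and 104 CPM (young) and 84.6 and 103 CPM (aged). Muscle libraries were at 203 and 226 CPM (young) and 188 and 160 CPM (aged). Muscle and spleen did not overlap, with differences of 1.01 ± 0.18 in young mice (adjusted p = 0.000945) and 0.89 ± 0.18 in aged mice (adjusted p = 0.00302). The call in aged mice ended without aged spleen replicate 1 (0.75). The age differences were -0.30 ± 0.17 in muscle (adjusted p = 0.431) and -0.18 ± 0.18 in spleen (adjusted p = 0.678).

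The adaptor gene Myd88 (chromosome 9, 119335934 to 119341411, minus strand) was listed at 0 in all 8 libraries, where 3 counts would be 0.736 to 1.50 CPM a library, and was not tested. It lies within the span of Slc22a14 on the same strand (119169455 to 119365553), which had 223 to 387 counts a library. In GENCODE M21 Myd88 shares 0 exon bases with Slc22a14, and 11.3% of its exon bases are shared with Acaa1a on the opposite strand. Whether the counting of overlapping genes set the 0 was not tested, so the level of Myd88 RNA is unknown here.

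**Figure D2:**
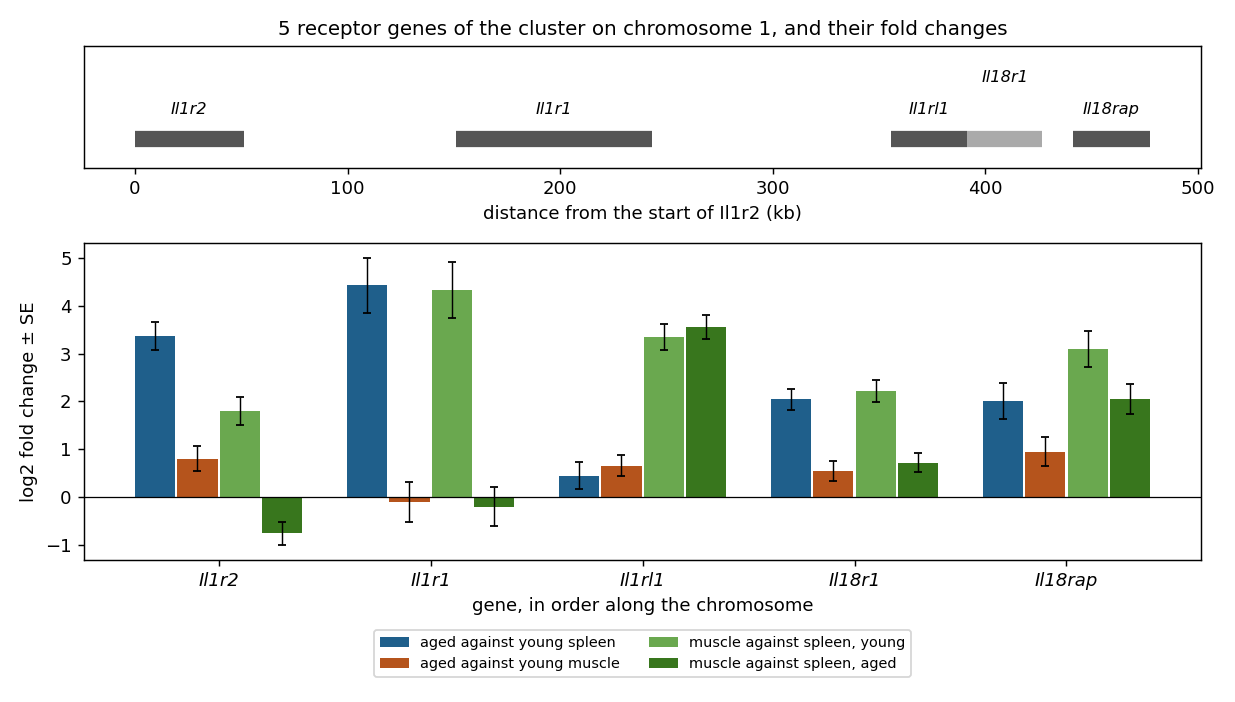
Top: the 5 receptor genes on chromosome 1, drawn to scale as distance in kb from the start of Il1r2. Bottom: their log2 fold changes (bars, with SE from the fit to 8 libraries) in 4 comparisons; Il1r1 has the tallest age bar in spleen (4.43), while the bars of Il1rl1 are tall for tissue at both ages and short for age.

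The ligand-binding chains, the decoy and Il18rap form a cluster. The 5 genes Il1r2, Il1r1, Il1rl1, Il18r1 and Il18rap lie in this order on the plus strand within 477627 bases. With age in spleen, the other 4 genes rose, while Il1rl1 between them differed by 0.45 ± 0.29 and did not pass, as the plot of the cluster shows. No expression difference between neighbouring genes was tested.

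**Figure D3:**
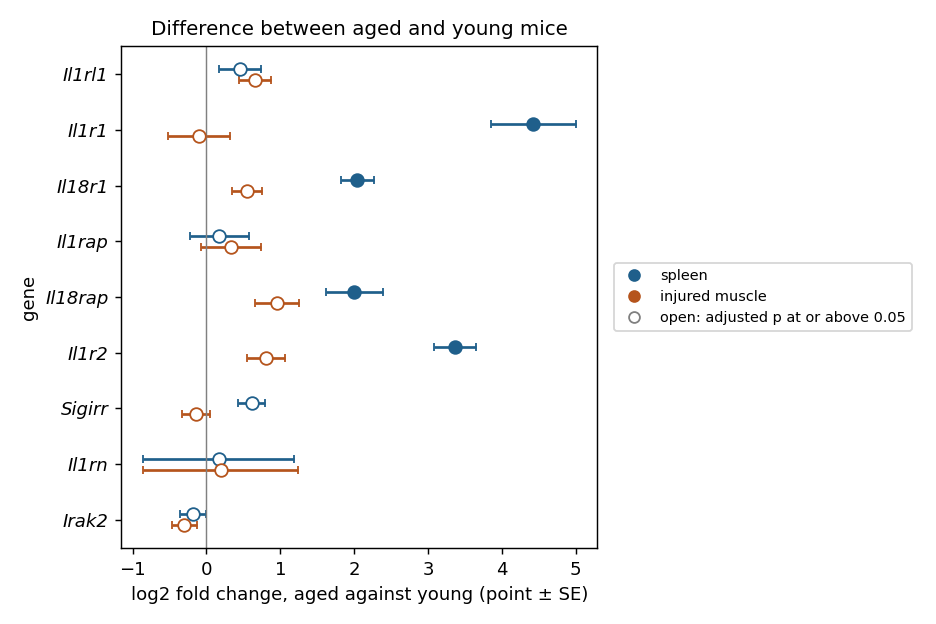
Log2 fold changes of the 9 tested genes, aged against young, in spleen and in injured muscle; points are estimates, bars ± SE, and open points did not pass adjusted p = 0.05. The 4 filled points are all in spleen (Il1r1, Il1r2, Il18r1 and Il18rap, from 2.00 to 4.43), and no muscle point is filled.

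The comparison of ages asked how these receptors change in older mice within each tissue. In spleen 4 of the 9 tested genes were higher and 0 lower by edgeR and by DESeq2, against 2.08% of all tested genes called higher and 2.17% lower (4.24% in either direction). Of those 9, 5 had an unadjusted p under 0.05, all higher, against 16.7% of all genes in either direction. The median fold change of the 9 was 0.61, against 0.05 over all genes, and 6 had aged libraries above both young ones, which held for 28.8% of all genes. Irak2 alone had both aged libraries below the young ones, as 24% of all genes did. In muscle 0 of 9 passed by edgeR or DESeq2, against 2.02% of all genes (1.14% higher and 0.88% lower). At an unadjusted p under 0.05, 4 of the 9 were higher there (Il1rl1, Il1r2, Il18r1 and Il18rap) and 0 lower, against 15.3% of all genes in either direction. The aged libraries lay above the young ones for those 4, against 21.2% of all genes, and below them for Irak2, against 20.3%. The median in muscle was 0.33 against 0.03.

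The age effects were compared directly, as the change in muscle minus the change in spleen. It was lower for 3 of 9 genes and higher for 0, against 1.17% and 1.35% of all genes (2.52% together). At an unadjusted p under 0.05, 5 of 9 were lower and 0 higher, against 13% of all genes in either direction. The values were -4.52 ± 0.72 for Il1r1 (adjusted p = 0.00257), -2.56 ± 0.38 for Il1r2 (adjusted p = 0.00147) and -1.50 ± 0.30 for Il18r1 (adjusted p = 0.0131). The same contrast is also the gap between muscle and spleen in aged mice minus that in young mice. That gap was smaller in aged mice for Il1r1 and Il18r1. For Il1r2 its sign turned, which the contrast does not test and which rests on the narrow call in aged mice given above. The call of Il18r1 ended without young spleen replicate 1 (-1.51), young spleen replicate 2 (-1.49) or aged spleen replicate 2 (-1.35). Il18rap at -1.05 ± 0.49 (adjusted p = 0.374), Sigirr at -0.75 ± 0.26 (adjusted p = 0.177) and Il1rl1 at 0.21 ± 0.36 (adjusted p = 0.893) did not pass.

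**Figure D4:**
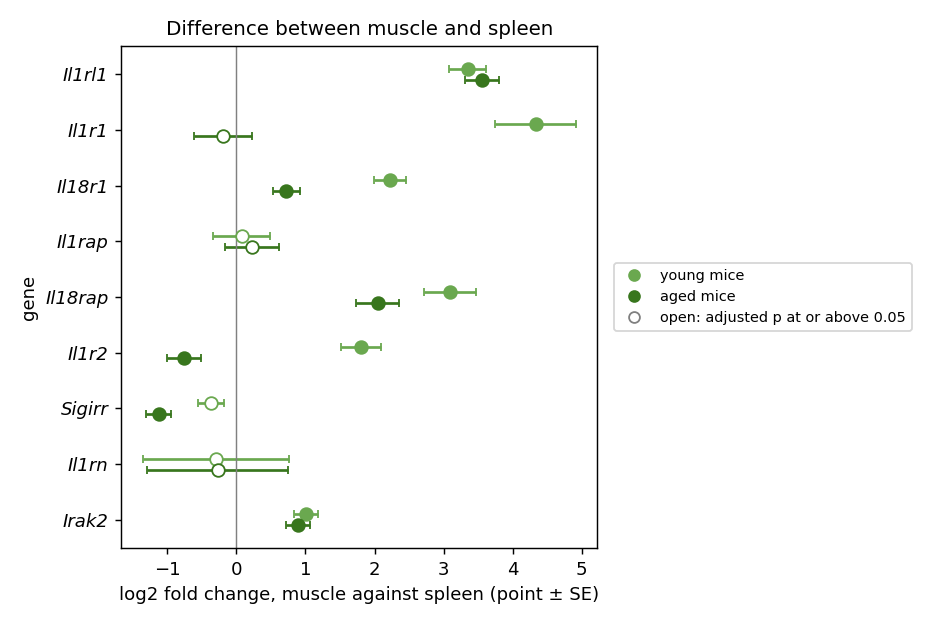
Log2 fold changes of the 9 tested genes, muscle against spleen, in young and in aged mice; points are estimates, bars ± SE, and open points did not pass adjusted p = 0.05. Il1rl1 lies at 3.35 and 3.55, whereas Il1r1 moves from 4.33 in young to -0.19 in aged mice.

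The comparison of tissues asked which receptors mark Tregs of injured muscle. In young mice 6 of 9 genes were higher in muscle and 0 lower, against 11.4% and 10.9% of all tested genes (22.3% together), with a median of 1.80 against 0.07. The same 6 had an unadjusted p under 0.05, against 36.4% of all genes, and muscle libraries above both spleen libraries, against 31.7%. Sigirr had both muscle libraries below, as did 30% of all genes. In aged mice 4 were higher (Il1rl1, Il18r1, Il18rap and Irak2) and 2 lower (Il1r2 and Sigirr), against 9.57% and 9.27% (18.8% together), with a median of 0.23 against 0.03. These 6 had an unadjusted p under 0.05, against 34.5% of all genes. The libraries of the tissues did not overlap for them, with muscle above in 4, against 33% of all genes, and below in 2, against 32.4%. The comparisons of age and of tissue share libraries, young spleen among them, so they are not independent of each other.

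Set per kilobase of annotated exon, levels can be compared between genes, as far as reads spread evenly along a transcript. In young spleen Sigirr was at 45.7 ± 3.8 CPM per kb, Irak2 at 24.2 ± 0.75, Il1r2 at 7.29 ± 0.61, Il18r1 at 4.53 ± 0.04 and Il1rl1 at 1.77 ± 0.28 CPM per kb, while Il1r1 was at 0.165 ± 0.025. In aged spleen Il1r2, at 75.7 ± 5.1 CPM per kb, stood next to Sigirr at 69.8 ± 7.5, with overlapping libraries. In aged muscle Il1r2 at 44.8 ± 6.3, Irak2 at 39.5 ± 4.6, Sigirr at 32.0 ± 5.6, Il18r1 at 30.9 ± 2.9 and Il1rl1 at 28.3 ± 7.5 CPM per kb followed each other. Neighbours in that order overlapped, except Irak2 and Sigirr, whose nearest libraries were at 36.2 and 36.0. In the same libraries Il1r1 was at 3.26 ± 1.3 and Il1rap at 2.40 ± 0.93 CPM per kb.

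Of 31 signalling genes downstream of the TIR domain, 6 were higher and 1 lower in muscle of young mice, near the share of all genes called (22.3%). In aged mice 5 were higher and 0 lower, against 9.57% and 9.27% of all genes (18.8% in either direction). The medians of the 31 were -0.03 in young and 0.03 in aged mice, against 0.07 and 0.03 over all genes. Nfkbia, the NF-kB inhibitor that NF-kB itself induces, was higher in muscle by 1.41 ± 0.14 in young and 0.89 ± 0.14 in aged mice, and the p38 kinase activator Map2k3 by 1.95 ± 0.25 and 1.79 ± 0.24. With age, 1 of the 31 rose in spleen, where 4.24% of all genes were called in either direction. It was the NF-kB subunit gene Relb by 0.91 ± 0.17 (adjusted p = 0.00562), a call that ended without any 1 spleen library (0.83 to 0.98). In muscle 0 of the 31 passed for age by the edgeR test, the one run on this list, with 4 at an unadjusted p under 0.05, a share close to the 15.3% of all genes. Casp1, the protease that matures IL-1β and IL-18, was the 1 gene of 5 tested inflammasome genes that rose with age, by 1.74 ± 0.23 in spleen and 1.73 ± 0.24 in muscle (adjusted p = 0.000366 and 0.00098), where 2.08% and 1.14% of all genes were called higher. Its call in muscle ended with only the muscle groups fitted (adjusted p = 0.0526).

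Of the ligands and soluble binders, 6 of 10 were in the table and 4 were tested, and by edgeR 0 passed in any of the 5 comparisons. The IL-33 gene Il33 had 0 to 15 counts a library. The IL-1β gene Il1b had 120 counts in young muscle replicate 1 and 0 to 18 in the other 7 libraries. Of the 3 other receptors of the family, Il1rapl1 and Il1rapl2 were higher in muscle of aged mice by 1.25 ± 0.36 and 2.15 ± 0.41, where 9.57% of all genes were called higher. Il1rl2 differed by 2.00 ± 1.57 and did not pass (adjusted p = 0.384). The call of Il1rapl1 ended without either aged spleen library (1.35 and 1.17) or aged muscle replicate 2 (0.62), and that of Il1rapl2 without aged spleen replicate 2 (1.90).

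Genes known to mark ST2-bearing tissue Tregs were set beside Il1rl1. In muscle of young mice 12 of 13 tested were higher and 0 lower, against 11.4% of all genes higher, among them the amphiregulin gene Areg by 3.02 ± 0.27 and the inhibitory receptor gene Klrg1 by 4.66 ± 0.21. The exception was the transcription factor gene Gata3 (-0.04 ± 0.16), which passed in none of the 5 comparisons. The calls of the transcription factor genes Batf and Maf, which were among the 12, ended without any 1 of 6 libraries for Batf (0.50 to 0.60) and of 3 for Maf (0.46 to 0.71). In aged mice 6 were higher and 2 lower, against 9.57% and 9.27% of all genes. Areg was higher by 2.10 ± 0.23 and Klrg1 by 3.28 ± 0.19. Batf (-0.75 ± 0.17) and Maf (-0.65 ± 0.16) were lower, calls that ended without either aged spleen library or aged muscle replicate 2 (Batf -0.77 to -0.53, Maf -0.66 to -0.52). Il10 (0.28 ± 0.17) and Itgae (0.05 ± 0.16) did not pass there. With age in spleen 9 of 13 rose, against 2.08% of all genes, with a median of 1.19 against 0.05 over all genes, including Areg by 2.11 ± 0.27, the anti-inflammatory cytokine gene Il10 by 1.94 ± 0.19 and the integrin gene Itgae by 2.04 ± 0.17. In aged against young muscle, where 1.14% of all genes were called higher and 0.88% lower, 1 rose (Areg, 1.19 ± 0.23) and 2 fell (Il10 by 0.74 ± 0.17 and Itgae by 1.00 ± 0.16). The calls in muscle ended with only the muscle groups fitted. For Areg it was also lost on leaving out the first aged muscle library (1.03). For Il10 it was lost on leaving out young muscle replicate 1 (-0.58), aged muscle replicate 2 (-0.66) or any 1 spleen library (-0.74). Among the 9 in spleen, the calls of Klrg1 (0.76 to 1.03), Batf (0.99 to 1.09) and Maf (0.65 to 0.89) ended without any 1 spleen library. The age effect in muscle minus that in spleen was lower for 5 of the 13 (Batf, Il10, Itgae, Klrg1 and Maf) and higher for 0. All genes had 1.17% lower and 1.35% higher, and the medians were -1.24 and -0.04. The call of Batf ended without any 1 spleen library (-1.35 to -1.25), and those of Klrg1 (-1.52 to -1.25) and Maf (-1.24 to -1.11) without some of them.

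Other cells that carry these receptors could lie in a sort. Among 8 mast cell and basophil markers, which go with high Il1rl1, Mcpt4 and Tpsb2 were at 0 in all 8 libraries. Their sum was 2.32 to 4.41 CPM in spleen, 12.9 and 15.0 CPM in young muscle and 74.5 and 82.5 CPM in aged muscle, where Kit made up most of it with 181 and 159 counts. Kit was higher in muscle by 2.25 ± 0.67 in young and 4.63 ± 0.54 in aged mice, and rose with age in muscle by 3.23 ± 0.51. In these comparisons 11.4%, 9.57% and 1.14% of all genes were called higher. Cpa3 had 0 to 27 counts a library and Mcpt8 0 to 21, and neither passed a test. Fcer1a had 6 counts in aged muscle replicate 2 and 0 elsewhere. Among 6 markers of type 2 innate lymphoid cells Il13 was at 0 in every library, and the sum was 20.6 to 27.0 CPM in spleen and 30.6 to 46.2 CPM in muscle. Of the 3 tested, Il17rb was higher in muscle of young mice by 3.44 ± 1.01 (adjusted p = 0.0238), where 11.4% of all genes were called higher. Its counts there were 14 and 36, against 1 and 4 in young spleen. In aged mice Il17rb differed by 2.30 ± 0.92 between the tissues and did not pass (adjusted p = 0.0928). Among 8 neutrophil markers, cells known for high Il1r2, Ly6g was at 0 throughout. Their sum was 142 to 287 CPM in spleen and 295 to 472 CPM in muscle. Cxcr2 was the largest of them in 7 libraries and Mmp9 in young muscle replicate 1, at 133 CPM against 124 CPM for Cxcr2. Mmp9 was at 1.87 to 12.8 CPM in spleen and 40.6 to 133 CPM in muscle. It was higher in muscle by 3.77 ± 0.58 in young and 2.62 ± 0.56 in aged mice, the latter call ending without either aged spleen library (2.44 and 2.80). In aged mice 1 of the 6 tested markers was higher in muscle and 1 lower, against 9.57% and 9.27% of all genes. Camp was the lower one, by a log2 fold change of -7.90 ± 2.29 (adjusted p = 0.0334), at a mean of 0 CPM in muscle and 11.2 CPM in spleen. S100a8 (-5.82 ± 1.87) and S100a9 (-3.94 ± 1.43) were also lower there, Cxcr2 (1.22 ± 0.40) and Csf3r (1.01 ± 0.70) were higher, and none of them passed. S100a8 overlapped between the ages in spleen, at 19.6 and 5.04 CPM (young) and 17.9 and 55.3 CPM (aged; adjusted p = 0.632). In muscle it was at 24.1 and 0.50 CPM (young) and 0 and 1.27 CPM (aged). The part of such cells in the receptor levels was not tested.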

How the data were processed

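RNA of sorted Tregs was measured in 8 libraries, 2 in each of 4 groups. RNA was amplified by in vitro transcription and then by PCR, per the labels' protocols, with no mention of molecular identifiers, so reads rather than molecules were counted. The authors deposited whole-number read counts per gene symbol, with no normalization. HTSeq, SAMtools 0.1.19, Picard, TopHat and TopHat2 are named with the build mm10, per the submitters' processing notes, while annotation and strand setting were not given in the sources used. Reads of overlapping or antisense genes can therefore not be told apart. Duplicates are described as biological in the design text, but nothing says that they came from separate animals, so a p-value reflects only how far these libraries spread, which may be technical.

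Counts were analysed in R 4.3.3 with edgeR 4.0.16. The filter on low counts was filterByExpr, given the 4 groups (14772 of 38406 genes left; 9 of the 10 genes described, all but Myd88). Libraries were scaled by TMM and fitted robustly by 1 quasi-likelihood model that had 1 coefficient for each group, leaving 4 residual degrees of freedom. The 5 contrasts were tested two-sided with Benjamini-Hochberg adjustment over all 14772 genes at 0.05. Standard errors were derived from each estimate and its F statistic (estimate over the root of F). The likeness to Il1rl1 used log2 CPM with a prior count of 2. The procedure was tested on simulated data. A lone library left in a group was assumed to vary like the others. Alternatives were other scalings, no filter, DESeq2 1.42.0, the replicate number as a block, only the 2 groups compared, and each library left out.

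Gene positions, counted from 1, follow GENCODE M21 (GRCm38, the same assembly as mm10). Intervals from counts and floors of 3 counts cover counting error only. The members, lists and motifs were chosen with earlier results of these data known. The named genes are the members, the list members past the threshold of which a part is given, and the 5 genes most like Il1rl1, leaving out predicted and clone-named genes and antigen-receptor segments.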

Additional observations from a re-analysis of the deposited data

Results flagged for a closer look

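For 3 receptor genes the age effects differed between the tissues by the test of the difference itself, computed as the log2 change in muscle minus that in spleen. They were Il1r1 at -4.52, Il1r2 at -2.56 and Il18r1 at -1.50. Such a difference was not particular to the receptors. It was called lower for 5 of 13 tested genes known to mark ST2-bearing tissue Tregs, against 1.17% of all genes. For Il1r1 and Il1r2 the call held in each of the 13 alternative fits, with edgeR or DESeq2 adjusted p of at most 0.0333 and 0.0275.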

How the results depend on the processing

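The calls of 6 genes higher in muscle of young mice, and those of Il1r1, Il1r2 and Il18r1 for age in spleen, were made under every alternative run. The number of members lower in aged muscle than aged spleen was 2, and 1 with relative log expression scaling and with DESeq2. Without 1 library the numbers called were 3 to 5 higher for age in spleen, 0 to 1 higher for age in muscle, 2 to 3 lower for the difference of age effects, and 2 to 4 higher and 1 to 2 lower for tissue in aged mice. With replicate number as a block, 5 members were higher for age in spleen, Sigirr being added (0.61, adjusted p = 0.0379), and it changed no other call of a member. Deviations of equal numbers correlated at -0.07 to 0.26 across genes, and nothing in the labels pairs the libraries. Signs turned only for values not past the threshold: Il1r1 for age in muscle (0.0339 with library-size scaling), Il1rn for the difference of age effects (-0.0138 with that scaling, -0.0171 without a filter), and, without 1 library, values of Il1rn, Il1rap, Il1r1, Sigirr, Irak2 and Il1rl1 as follows. The ranges were, for age in muscle, Il1rn -0.55 to 1.99, Il1r1 -0.57 to 0.27, Il1rap -0.13 to 0.69, Sigirr -0.33 to 0.0253, for age in spleen, Il1rap -0.12 to 0.54, Il1rn -0.70 to 1.34, for difference of age effects, Il1rap -0.31 to 0.53, Il1rn -1.14 to 1.82, Irak2 -0.26 to 0.0334, Il1rl1 -0.0725 to 0.45, for tissue in young mice, Il1rn -2.09 to 0.87, Il1rap -0.27 to 0.44, for tissue in aged mice, Il1rn -0.79 to 0.59, Il1r1 -0.67 to 0.19, Il1rap -0.23 to 0.60. Library-size scaling moved the median of all genes by 0.12 for age in muscle, 0.17 for age in spleen and 0.11 for tissue in young mice. It moved the share of higher calls for age in spleen from 49% to 67.4%. Over all genes, where 168 were higher and 130 lower for age in muscle, 307 and 320 for age in spleen and 199 and 173 differed in age effect, the counts moved over 1.5 times in these fits. Without a filter they were 417 and 331 for age in muscle, 632 higher for age in spleen, and 299 and 371 for the difference. With DESeq2, 254 were lower for age in muscle. With the replicate block they were 263 and 216 for age in muscle and 469 higher for age in spleen. With only the 2 groups compared they were 33 and 17 in muscle and 928 and 1002 in spleen. With library-size scaling, 489 were higher for age in spleen. Without 1 library, higher and lower counts ranged from 98 to 553 and 46 to 425 for age in muscle, 74 to 567 and 60 to 479 for age in spleen, 71 to 298 and 66 to 348 for the difference, 660 to 1891 and 784 to 1787 for tissue in young mice, and 426 to 2079 and 444 to 1873 for tissue in aged mice. At 2 to 3 counts of Il1r1 in young spleen and 0 of Myd88, depth limits what can be said of their level there. The cause of these changes was not tested.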

Other observations

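In counts, the decoy gene Il1r2 was 14.0 and 12.7 times Il1r1 in young spleen and 5.45 and 6.86 times in aged spleen. In muscle the ratios were 2.67 and 1.64 (young) and 6.30 and 2.89 (aged). The young spleen ratios rest on 2 and 3 counts of Il1r1. Il18r1 was 3.73 to 5.25 times Il18rap in the 4 spleen libraries and 1.54 to 2.40 times in the 4 muscle libraries, with no overlap.

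Il1rn was higher in replicate 1 than in replicate 2 of all 4 groups, at 7.01 against 1.94 CPM (young spleen), 7.11 against 2.71 CPM (aged spleen), 6.03 against 0.999 CPM (young muscle) and 5.21 against 2.96 CPM (aged muscle). The labels say nothing of what the replicate numbers share.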
